A study of Mus musculus with 22 samples.

Results

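The Ca2+/calmodulin-dependent kinase genes, 10 of the 23361 genes in the expression table, are described here, and they were taken by symbol. They are Camk2a, Camk2b, Camk2d and Camk2g, which encode the CaMKII subunits, Camk1, Camk1g and Camk4, which encode CaMKI and CaMKIV kinases, Camkk1 and Camkk2, which encode the upstream CaMK kinases, and Camkv, which encodes a related protein. All 10 had a row in the table and all 10 passed the filter on low values. The mRNA came from microdissected hippocampal CA1 of 22 mice, with 1 library per mouse, all of them female and bred as Swiss Webster x DBA/C57BL6 F1. At 5 months of age, 5 mice were fed ad libitum (AL) and 5 were on calorie restriction (CR), and 6 mice were on each diet at 15 months. AL is the diet labelled normal, the CR diet was reduced in carbohydrates, and all mice were wild-type. The diets began at about the same age in all mice, before 5 months. Older mice had thus been on their diet for longer, so age and time on CR cannot be told apart in CR mice. All mice received a lethal dose of ketamine and xylazine before the brains were removed. Replicate numbers run from 0 in every group, as the labels give them. Levels are FPKM (fragment counts scaled by the length of the transcript and the size of the library), which can be compared between genes.

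CaM kinases convert a rise of intracellular calcium into phosphorylation. Calcium binds calmodulin, the complex binds the autoinhibitory segment of a kinase, and the kinase is released to act. CaMKII subunits assemble into large holoenzymes that phosphorylate each other at a threonine of the regulatory segment, which keeps the enzyme active after calcium has fallen, and this enzyme is abundant at hippocampal excitatory synapses and needed for long-term potentiation. In a separate cascade the CaMKK enzymes phosphorylate CaMKI, found mostly in cytoplasm, and CaMKIV, found mostly in the nucleus, where it acts on CREB. Camkv resembles these kinases and binds calmodulin but lacks kinase activity.

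Of the 10 genes, 8 are placed here. They lie, on GRCm38 (the assembly also called mm10, on which the reads were aligned), at chr11:5969644-6066362 on the minus strand for Camk2b, chr3:126596302-126846326 on the plus strand for Camk2d, chr14:20734875-20794088 on the minus strand for Camk2g and chr9:107935674-107949691 on the plus strand for Camkv. Camk1 lies at chr6:113334124-113343984 on the minus strand, Camk1g at chr1:193346346-193370298 on the minus strand, Camkk1 at chr11:73019008-73042073 on the plus strand and Camkk2 at chr5:122731170-122779409 on the minus strand. All are protein-coding, and these are the spans of the gene models of GENCODE M21.

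CaMKII genes are close paralogs, so the stretch around the regulatory threonine is shown for the 3 of them that passed the test with age, to let the difference between them be seen at read scale. Each line holds 63 coding bases of a GENCODE M21 transcript, 5′ to 3′, with the codon of that threonine in capitals.
Camk2b: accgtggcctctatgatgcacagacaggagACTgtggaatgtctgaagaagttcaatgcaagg
Camk2d: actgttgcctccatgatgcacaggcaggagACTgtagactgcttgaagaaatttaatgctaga
Camk2g: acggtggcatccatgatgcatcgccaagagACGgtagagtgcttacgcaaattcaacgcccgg
Camk2b and Camk2d were identical at 51 of the 63 bases (81.0%), Camk2d and Camk2g at 71.4%, and Camk2b and Camk2g at 68.3%. Over whole annotated transcripts, none of the 10 genes shared a stretch of 50 bases with another of the 10. Camk1 shared 2.22% of its 50-base stretches with Ogg1, an overlapping gene, and the library kit is not stated to keep strand, so the values of Camk1 are less certain. Camk4 shared 0.7103%, Camk2a 0.293% and Camk2b 0.159% with other genes, and the remaining 6 genes shared none.

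RefSeq promoters, 300 bases around a start of each gene on GRCm38.p6, were at hand for 7 of the 10 genes. Those of Camk2d and Camk2b lie wholly inside the GENCODE M21 spans given above and do not hold the 5′ end of the span. The promoters of the gene that rose most with age and of a paralog that fell are printed, because both are rich in CG and hold the same motif. Capitals mark the GC box GGGCGG on either strand, overlapping copies included.
Camk2d, chr3:126596701-126597000, plus strand: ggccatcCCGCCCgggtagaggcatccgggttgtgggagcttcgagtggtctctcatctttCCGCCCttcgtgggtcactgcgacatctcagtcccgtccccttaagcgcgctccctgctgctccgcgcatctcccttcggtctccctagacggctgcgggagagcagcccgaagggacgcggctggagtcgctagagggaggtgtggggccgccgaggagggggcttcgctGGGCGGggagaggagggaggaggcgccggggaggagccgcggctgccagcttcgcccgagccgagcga
Camk2b, chr11:6065699-6065998, minus strand: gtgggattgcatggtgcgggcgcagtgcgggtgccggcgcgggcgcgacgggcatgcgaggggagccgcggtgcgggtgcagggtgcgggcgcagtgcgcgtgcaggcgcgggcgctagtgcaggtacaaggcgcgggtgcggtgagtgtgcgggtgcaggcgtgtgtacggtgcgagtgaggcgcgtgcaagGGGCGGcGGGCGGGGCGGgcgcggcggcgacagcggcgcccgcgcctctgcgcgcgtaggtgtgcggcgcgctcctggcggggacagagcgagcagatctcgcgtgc
Each held 3 GC boxes, and the G and C content was 70.3% for Camk2d and 77.3% for Camk2b. At least 1 GC box was found in 5 of the 7 promoters, against 35.7% of 32851 mouse promoters of the same length. TGACG on either strand was in 2 of 7, against 20.8%, and TATAAA on either strand was in 0 of 7, against 13.6%. These matches are a description of letters and not of bound sites.

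All libraries were similar in scale, with medians of 2.51 to 3.10 FPKM over all genes and 18281 to 19175 genes above 0. Read counts cannot be had from these values, so the depth behind each value is unknown and precision rests on the spread between mice. The label of CA1 was checked against marker lists. Every gene of the CA1 pyramidal neuron list was above 0 in every library, but so was every gene of the other 9 lists, among them CA3, dentate gyrus, neocortex and subiculum, and choroid plexus. In AL mice, 4 of 8 CA1 genes and 4 of 6 choroid plexus genes were lower, and 5 of 10 neocortex and subiculum genes were higher, at 15 than at 5 months. Of the thalamus and habenula list 3 of 6 were higher and 1 lower, and of the dentate granule cell list 2 of 6 were lower. The CA3 and astrocyte lists each had 1 of 6 higher and 1 lower. The oligodendrocyte and microglia lists each had 1 of 6 lower, and of the interneuron list 0 of 7 differed. With age in CR mice, 6 of 6 choroid plexus genes were lower and 1 of 10 neocortex and subiculum genes was higher. Of the thalamus and habenula list 1 of 6 (Gpr151) was lower in them. Over all genes tested with limma, 20.6% differed with age in AL mice and 3.36% in CR mice. A region score, the mean log2(FPKM + 0.1) of the neocortex and subiculum list minus that of the CA1 list, was -3.53 to -2.14 in AL mice at 5 months, -3.36 to -2.77 in CR mice at 5 months, -1.58 to -0.49 in AL mice at 15 months and -2.98 to -0.62 in CR mice at 15 months. The 2 AL groups did not overlap in this score, and fits with the score as a covariate are given beside the results below. In tissue of mixed cells, fewer cells of a type and less RNA per cell cannot be told apart.

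Camk2a was the most abundant of the 10 genes, with a mean of 613.8 FPKM over the 22 libraries, which ranked 126th in the table. Camk2b and Camkv followed with 251 and 243 FPKM. Camk2g and Camkk1 were at 67.5 and 62.2 FPKM, Camk1, Camkk2 and Camk2d at 39.6, 38.0 and 31.8, and Camk1g and Camk4 at 17.4 and 15.4. This order is over all libraries and differs between groups. Camk2d was the lowest of the 10 in AL mice at 5 months (mean 9.90 FPKM) and above Camkk1 in AL mice at 15 months (57.1 against 52.0 FPKM), and the orders of Camk2b and Camkv and of Camk2g and Camkk1 also turned between groups.

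**Figure D1:**
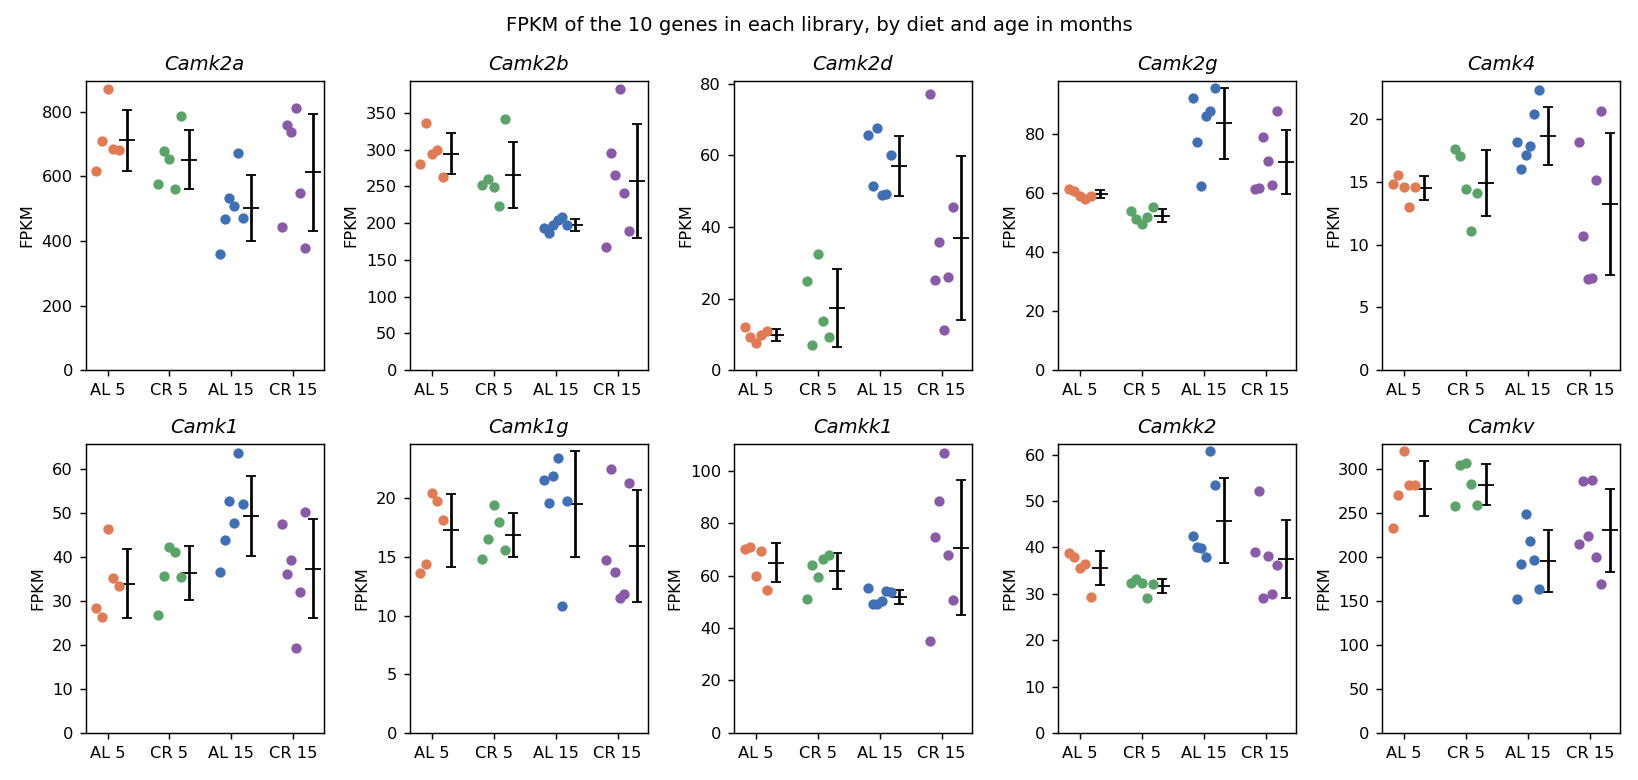
FPKM of each gene in every library (points) for AL and CR mice at 5 and 15 months, with the mean and SD of each group beside the points and every axis starting at 0. Camk2d is at 7.59 to 11.9 FPKM in AL mice at 5 months and at 48.8 to 67.6 in AL mice at 15 months, and CR mice at 15 months spread from 11.3 to 77.3.

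The first comparison asked which of these genes differ with age in AL mice, and 4 of the 10 passed the test. Camk2d and Camk2g rose, and Camk2b and Camkv fell. Over all 16978 genes tested with limma at a Benjamini-Hochberg adjusted p under 0.05, 20.6% passed, 10.7% upward and 9.97% downward, so the share among these 10 genes is to be read against that level. The median absolute log2 fold change of the 10 was 0.50, beside 0.20 for all genes tested. Log2 fold changes here are fitted differences between group means of log2(FPKM + 0.1), which slightly understate changes of low genes.

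Camk2d, the CaMKII delta subunit known best from heart, differed most. In AL mice at 5 months it was at 11.9, 9.35, 7.59, 9.78 and 10.8 FPKM, and at 15 months the lowest, median and highest libraries were at 48.8, 55.7 and 67.6 FPKM. All 6 older libraries were above all 5 younger ones, by a wide margin. This was a log2 fold change of 2.52 with a standard error (SE) of 0.38 (adjusted p = 0.000403 by limma, 6 against 5 libraries), or a 5.74-fold difference. The exact two-sided permutation p was 0.00216, the smallest these groups allow. Camk2d stayed called when any 1 of the 22 libraries was left out. With the region score as a covariate it was 1.28 and no longer called (limma adjusted p = 0.251).

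Camk2g, the CaMKII gamma subunit, which has been tied to carrying calmodulin toward the nucleus, rose by a smaller amount. At 5 months the AL libraries were close together at 61.4, 60.6, 58.9, 58.1 and 59.0 FPKM, and at 15 months the lowest, median and highest were 62.4, 87.0 and 95.5 FPKM. The groups did not overlap, though the lowest older library was close to the highest younger one. On the log2 scale the rise was 0.47 (SE 0.10, adjusted p = 0.00273 by limma and exact permutation p = 0.00433), and it was called with any 1 library left out. With the region score as a covariate it was 0.40 and not called.

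Camk2b, the CaMKII beta subunit, which binds actin in dendritic spines, fell. It was at 280.1, 336, 294, 300.2 and 262 FPKM at 5 months, and the lowest, median and highest at 15 months were 186, 198 and 209 FPKM. Every older library was below every younger one, and the older ones lay close together. Its log2 fold change of -0.57 (SE 0.15, adjusted p = 0.0133 by limma, exact permutation p = 0.00216) was called with any 1 library left out, and was -0.089 and not called with the region score as a covariate.

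Camk2a, the CaMKII alpha subunit of excitatory forebrain neurons, had values that pointed the same way as Camk2b but was not called. It was at 615, 708, 869, 684 and 682 FPKM at 5 months, and the lowest, median and highest at 15 months were 358, 490.2 and 672 FPKM. All 6 older libraries were below the younger median, and 1 of them lay within the younger range. By limma the log2 difference was -0.52 (SE 0.19, adjusted p = 0.0549), and by the exact permutation test of this gene alone p was 0.00866. With libraries shifted to a common median the difference was -0.57 and called (limma adjusted p = 0.0420). Under quantile normalization it was -0.27 and not called (limma adjusted p = 0.426).

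Camkv fell. The 5 younger AL libraries were at 233, 270.1, 320.4, 282 and 282 FPKM, and the older ones had a lowest, median and highest value of 152, 195 and 249 FPKM. Of the older libraries, 1 reached into the younger range. Its log2 fold change was -0.52, with an SE of 0.14 (adjusted p = 0.0120 by limma, exact permutation p = 0.00866). It was called with any 1 library left out, but not under quantile normalization (-0.38, limma adjusted p = 0.0503), and was 0.017 with the region score as a covariate.

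The CaMKI, CaMKIV and CaMKK genes did not pass the test with age in AL mice, though Camk1 and Camkk2 did under quantile normalization. Camk4 was at 14.9, 15.6, 14.6, 13.0 and 14.6 FPKM at 5 months and had a lowest, median and highest value of 16.02, 18.02 and 22.3 FPKM at 15 months. Its groups did not overlap, but its fitted difference of 0.35 was not called (SE 0.22, limma adjusted p = 0.255), with an exact permutation p of 0.00433. The spread that entered this fit was that of all 4 groups, and the CR mice at 15 months were the most variable for this gene. Over all genes tested, 14% did not overlap between the 2 AL groups, and 4 of the 10 did not (Camk2b, Camk2d, Camk2g and Camk4).

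Camk1, which encodes CaMKI alpha, averaged 33.9 ± 7.83 FPKM in the 5 younger and 49.4 ± 9.09 FPKM in the 6 older mice (mean ± SD, as for the genes that follow). It had a log2 fold change of 0.55 (SE 0.20, limma adjusted p = 0.0605) and 2 older libraries within the younger range. Camkk2, which also activates AMP-activated protein kinase, averaged 35.5 ± 3.74 and 45.7 ± 9.21 FPKM, with a log2 fold change of 0.35 (SE 0.13, limma adjusted p = 0.0703). Camkk1 averaged 65.0 ± 7.35 and 52.0 ± 2.73 FPKM, with a log2 fold change of -0.32 (SE 0.19, limma adjusted p = 0.237) and an exact permutation p of 0.00433. Camk1g, which encodes the membrane-anchored CaMKI gamma, averaged 17.3 ± 3.12 and 19.5 ± 4.49 FPKM, with a log2 fold change of 0.15 (SE 0.19, limma adjusted p = 0.610). Each of these 4 genes had overlapping groups.

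The count of genes called with age in AL mice depended on which libraries set the spread. When the 2 AL groups were fitted alone, 8 of the 10 genes were called, against 25.4% of all genes: Camk2a, Camk2b, Camk2d, Camk2g, Camk4, Camk1, Camkk1 and Camkv. With the region score as a covariate 0 of the 10 were called, and over all genes only 1 was. The AL groups do not overlap in the region score, so age and region score cannot be told apart in them.

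**Figure D2:**
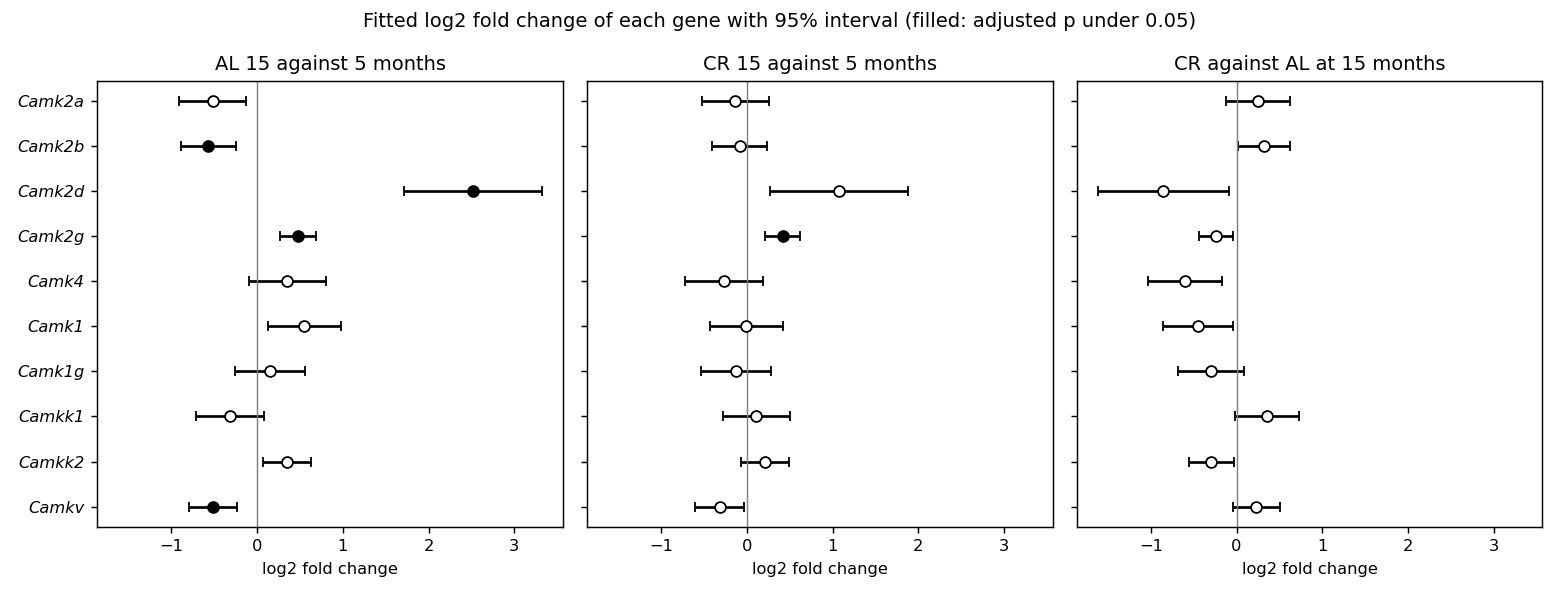
Fitted log2 fold change of each gene (point) with its 95% interval (bar) for age in AL mice, age in CR mice, and CR against AL at 15 months, with filled points for adjusted p under 0.05. Filled points number 4 for age in AL mice, 1 (Camk2g) for age in CR mice and 0 for diet at 15 months.

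In CR mice, 1 of the 10 genes differed between 15 and 5 months, beside 3.36% of all genes tested. Camk2g was at 53.99, 51.3, 49.6, 51.8 and 55.4 FPKM in the younger CR mice, and the lowest, median and highest older CR libraries were at 61.4, 66.8 and 87.8 FPKM. All 6 older libraries were above all 5 younger ones, which held for 3.26% of all genes in either direction. Their log2 difference was 0.42 (SE 0.10, adjusted p = 0.0218 by limma, exact permutation p = 0.00216). The call was lost without CR 5 months replicate 1 (limma adjusted p = 0.0554) or replicate 2 (limma adjusted p = 0.0547), when the CR groups were fitted alone (limma adjusted p = 0.0587), and with the region score as a covariate (limma adjusted p = 0.221).

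Camk2d was variable in CR mice of both ages. The younger CR libraries were at 24.8, 7.09, 32.4, 13.7 and 9.14 FPKM, and the older ones were at 77.3, 25.2, 35.8, 11.3, 26.0 and 45.5 FPKM, in the order of their replicate numbers. Of the older libraries, 3 lay within the younger range. Fitted by limma, the log2 difference was 1.07 (SE 0.38, adjusted p = 0.137, exact permutation p = 0.0866), and it was called only when CR 15 months replicate 3 was left out, with 1.36 (limma adjusted p = 0.0266). With the region score as a covariate it was 0.15 (limma adjusted p = 0.905).

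Within the CR groups, libraries with more Camk2d mostly had a higher region score. At 5 months the 5 CR libraries had the same order by both measures, from replicate 1 (region score -3.36, 7.09 FPKM) to replicate 2 (-2.77, 32.4 FPKM). At 15 months the order was also shared by 5 of the 6 CR libraries, from replicate 3 (-2.98, 11.3 FPKM) to replicate 0 (-1.03, 77.3 FPKM). The exception was replicate 4, which had the highest region score of the group (-0.62) and the lowest CA1 list score of all libraries (3.12) with 26.0 FPKM. Within the AL groups the orders were shared only in part. At 5 months replicate 2 was lowest (-3.53, 7.59 FPKM) and replicate 0 highest (-2.14, 11.9 FPKM) by both measures, but the order between them differed. At 15 months replicate 3 was lowest by both (-1.58, 48.8 FPKM). However, the AL library with the most Camk2d at 15 months (replicate 2, 67.6 FPKM) had the second lowest region score (-1.18), and the one with the highest score (replicate 5, -0.49) was at 60.1 FPKM. This is a description, and the part of tissue makeup in the level of Camk2d was not tested.

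**Figure D3:**
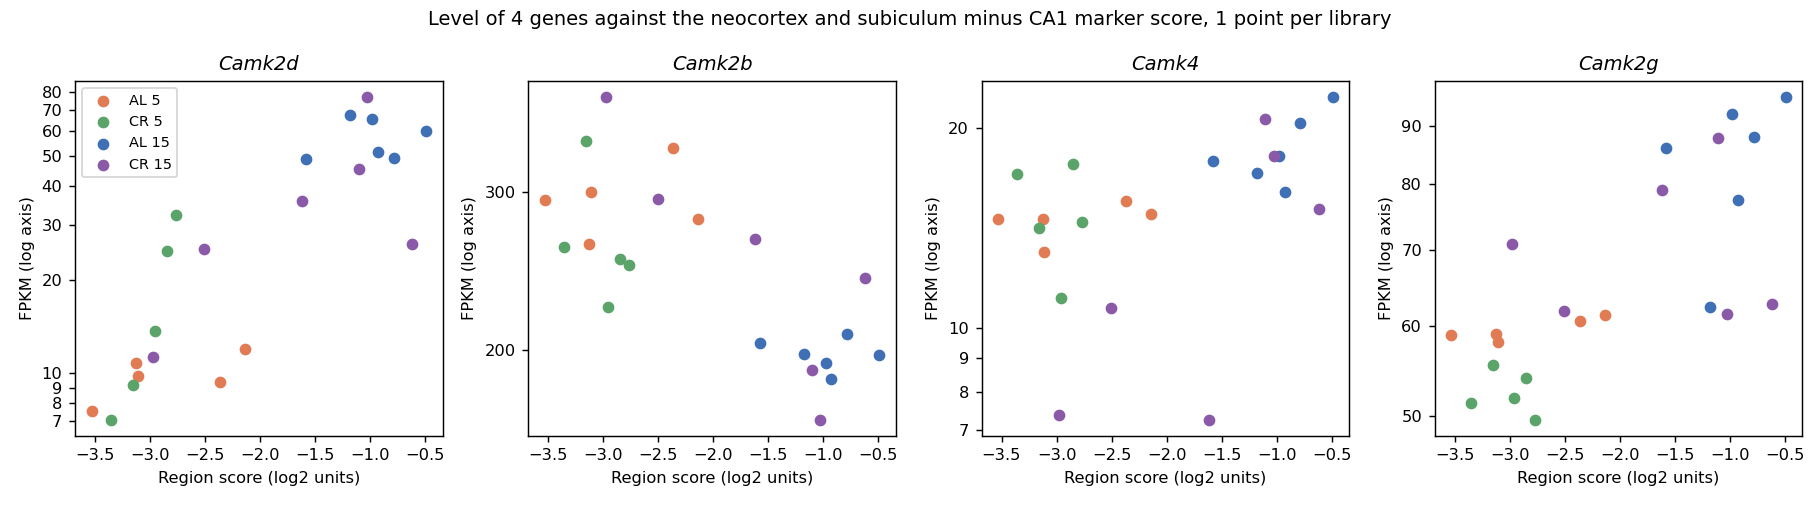
FPKM of Camk2d, Camk2b, Camk4 and Camk2g (log axes) against the region score in log2 units, 1 point per library, coloured by diet and age in months. Libraries of AL mice at 15 months sit at scores of -1.58 to -0.49 and those of AL mice at 5 months at -3.53 to -2.14, while CR libraries at 15 months reach across both ranges.

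None of the other 8 genes was called with age in CR mice. Camkv had the next largest log2 fold change, -0.32 (SE 0.14, limma adjusted p = 0.221), with means of 282 ± 23.7 FPKM in the younger and 230.3 ± 47.6 FPKM in the older mice (SD). Camk2a, Camk2b and Camk1 had log2 fold changes of -0.14, -0.09 and -0.01, and Camk4, Camk1g, Camkk1 and Camkk2 of -0.27, -0.12, 0.11 and 0.21. Each of these genes had overlapping groups.

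The test of whether the age difference itself depended on diet called 0 of the 10 genes and 0 genes in all with limma (0%), where 2 of the 10 and 7.66% of all genes had an unadjusted p under 0.05. The 2 genes were Camk2d, with a difference of differences of -1.45 on the log2 scale (SE 0.54, limma adjusted p = 0.628), and Camk2b, with 0.48 (SE 0.22, limma adjusted p = 0.639). It is thus not shown that age acted differently on these genes under the 2 diets.

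At 15 months, none of the 10 genes was called between CR and AL mice, where 0.742% of all genes were. An unadjusted p under 0.05 was reached by 6 (Camk2b, Camk2d, Camk2g, Camk4, Camk1 and Camkk2) and by 17.1% of all genes, and the median absolute log2 fold change of the 10 was 0.31, beside 0.13 for all genes. These data share the AL mice at 15 months with the age comparison above, so the directions of the 2 comparisons are not independent. In all 10 genes the ranges of the 2 diets overlapped. With the region score as a covariate 0 of the 10 were called, and the log2 difference between diets was -0.42 for Camk2d, 0.16 for Camk2b, 0.050 for Camk2a, -0.36 for Camk4, 0.20 for Camkk1 and 0.043 for Camkv, each smaller in size than without it. Not every gene moved that way, and Camk1g was at -0.40 with the score and at -0.30 without it.

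Camk4 had the smallest limma p of the 10 at that age, whereas by the exact permutation test it was Camk2d. The lowest, median and highest values were 16.02, 18.02 and 22.3 FPKM in AL mice and 7.27, 12.9 and 20.7 FPKM in CR mice. Of the 6 CR libraries, 4 were below all 6 AL libraries, and the other two lay within the AL range. On the log2 scale the difference was -0.60 (SE 0.21, limma adjusted p = 0.155, exact permutation p = 0.0693), and it was called only without CR 15 months replicate 5, with -0.75 (limma adjusted p = 0.0405).

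Camk2d was lower in 5 of 6 CR libraries than in every AL library at 15 months, whereas CR replicate 0, at 77.3 FPKM, was above them all. The means were 36.9 ± 22.9 FPKM in CR and 57.1 ± 8.44 FPKM in AL mice (SD, n = 6 each), and the log2 difference was -0.85 (SE 0.37, limma adjusted p = 0.243, exact permutation p = 0.0498). Camk2b averaged 257 ± 77.6 FPKM in CR and 198 ± 7.89 FPKM in AL mice, with a log2 difference of 0.32 (SE 0.15, limma adjusted p = 0.265). Leaving out any 1 library called neither gene.

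Camk1 averaged 37.3 ± 11.2 FPKM in CR and 49.4 ± 9.09 in AL mice at 15 months, with a log2 difference of -0.45 (limma adjusted p = 0.250). Camkk2 averaged 37.5 ± 8.35 and 45.7 ± 9.21 FPKM (-0.29, limma adjusted p = 0.253), and Camk2g 70.6 ± 10.9 and 83.6 ± 12.1 FPKM (-0.24, limma adjusted p = 0.200). Camkk1 was at 35.1 to 106.7 FPKM in CR and 49.1 to 55.2 FPKM in AL mice, with a log2 difference of 0.35 (limma adjusted p = 0.320), and it was called only without CR 15 months replicate 0 (0.54, limma adjusted p = 0.0335). Camk2a, Camkv and Camk1g had log2 differences of 0.25, 0.23 and -0.30 and unadjusted p values of 0.170, 0.0934 and 0.124 in limma.

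The CR mice at 15 months were the most variable group for these genes. Their SD of log2(FPKM + 0.1) was the largest of the 4 groups in 9 of the 10 genes, all but Camk2g, which was so for 52.2% of all genes tested. The median SD of the 10 genes was 0.17, 0.18 and 0.24 in AL mice at 5, CR mice at 5 and AL mice at 15 months, and 0.44 in CR mice at 15 months. For all genes tested it was 0.16, 0.17, 0.20 and 0.25 in the same order, so that group was the most variable there too. Replicate 3 stood at the edge of its group most often. It had the highest value of the 6 libraries for 4 genes (Camk2a, Camk2b, Camkk1 and Camkv) and the lowest for 3 (Camk2d, Camk1 and Camk1g), together with the lowest region score (-2.98) and the highest dentate granule cell score (4.37) of the group. The part of tissue makeup in this spread was not tested.

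At 5 months no gene of the 10 was called between the diets, and limma called 0 genes in the whole table (0%). Unadjusted, 0 of the 10 and 4.65% of all genes had a p under 0.05. The log2 differences of CR from AL mice ran from -0.19 for Camk2g to 0.59 for Camk2d. For Camk2g all 5 CR libraries (49.6 to 55.4 FPKM) were below all 5 AL libraries (58.1 to 61.4 FPKM), which held for 1.36% of all genes in either direction. Its exact permutation p was 0.00794, the smallest possible with these groups, whereas the limma fit gave an adjusted p of 1 and a 95% interval of -0.40 to 0.03.

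Older CR mice were also set against young AL mice, and 1 of the 10 genes was called, beside 3.12% of all genes. Camk2d was higher in CR mice at 15 months by 1.67 on the log2 scale (SE 0.38, limma adjusted p = 0.0214, exact permutation p = 0.00649), with 1 of 6 older libraries inside the younger range. The call was lost without AL 5 months replicate 1, 2 or 4 (limma adjusted p = 0.0506, 0.0727 and 0.0512), in a fit of these groups alone (limma adjusted p = 0.0742), and with the region score as a covariate, where Camk2d was at 0.86 (limma adjusted p = 0.363). Camk2g did not overlap between these groups (2.94% of all genes did not) but was not called, with 0.23 (SE 0.10, limma adjusted p = 0.204). The remaining 8 genes had log2 differences between -0.29 and 0.10.

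By mean FPKM, Camk2d thus ran from AL at 5 months (9.90) through CR at 5 months (17.4) and CR at 15 months (36.9) to AL at 15 months (57.1). In that order no neighbours were called apart in the fit of all libraries. Camk2g ran from CR at 5 months (52.4) through AL at 5 months (59.6) and CR at 15 months (70.6) to AL at 15 months (83.6), again with no call between neighbours, although the diets did not overlap at 5 months. Camk2b ran the other way, from AL at 5 months (295) through CR at 5 months (265) and CR at 15 months (257) to AL at 15 months (198), and Camk2a had the same order (712, 651, 613 and 502).

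Because FPKM are per length, the makeup of CaMKII mRNA could be followed in each library as the share of each gene in the summed FPKM of the 4 genes. Camk2a and Camk2b made up most of it in every library. The share of Camk2d was 1.23, 0.839, 0.617, 0.929 and 1.07% in AL mice at 5 months, and the lowest, median and highest were 4.84, 6.93 and 9.26% in AL mice at 15 months. The AL groups did not overlap in this share.

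In CR mice the share of Camk2d was 0.711 to 3.29% at 5 months and 0.887 to 10.3% at 15 months, so the older CR libraries reached from the young AL range to beyond the old one. The share of Camk2g was 4.79 to 6.33% in AL mice at 5 months and 7.24 to 13.00% in AL mice at 15 months, and 4.64 to 6.10% and 5.42 to 12.5% in CR mice. Camk2a made up 66.0 ± 3.02% in AL and 66.0 ± 1.62% in CR mice at 5 months (mean ± SD), and 59.2 ± 5.21% and 61.9 ± 4.75% at 15 months. The summed FPKM of the 4 genes averaged 1076 ± 101 and 987 ± 131 in AL and CR mice at 5 months, and 841 ± 103 and 977 ± 234 at 15 months.

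**Figure D4:**
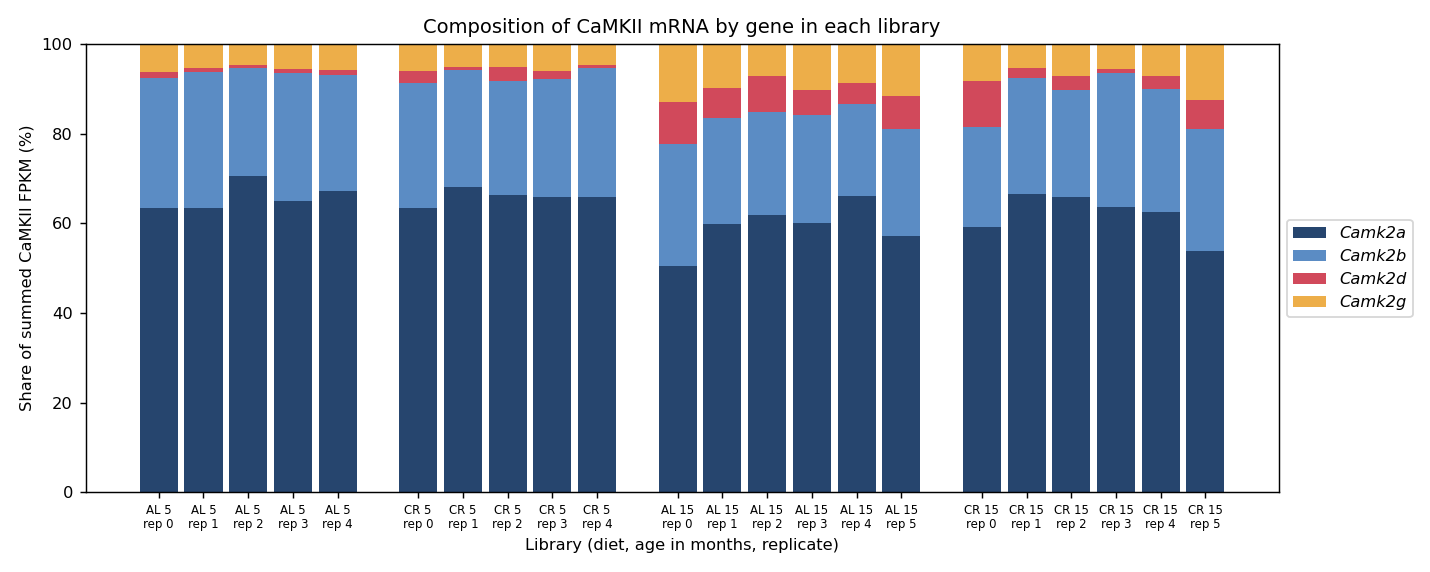
Share of Camk2a, Camk2b, Camk2d and Camk2g in their summed FPKM (percent) in each library, grouped by diet, age in months and replicate. Camk2d and Camk2g widen from 5 to 15 months in AL mice, to 4.84 to 9.26% and 7.24 to 13.00%, and the share of Camk2d in CR libraries at 15 months runs from 0.887 to 10.3%.

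The ratio of the major subunits was similar in the 4 groups. The FPKM of Camk2a was 2.43 ± 0.348 times that of Camk2b in young AL mice and 2.47 ± 0.163 times in young CR mice (mean ± SD). In old AL and old CR mice it was 2.53 ± 0.445 and 2.40 ± 0.314 times, with overlapping values throughout. The ratio of Camkk1 to Camkk2 was 1.68 to 1.91 in AL mice at 5 months and 0.890 to 1.32 in AL mice at 15 months, without overlap, and 1.59 to 2.28 and 0.897 to 3.04 in CR mice at 5 and 15 months. No test was run on shares and ratios.

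Genes that act with the CaM kinases were followed in 6 lists with 64 genes, of which 63 were tested. The CaMKII inhibitor genes rose with age in AL mice. Camk2n1, with means of 119 and 214 FPKM at 5 and 15 months, had a log2 fold change of 0.82 (SE 0.21, limma adjusted p = 0.0110), and Camk2n2, with 42.4 and 101 FPKM, one of 1.25 (SE 0.24, limma adjusted p = 0.00141). Ppm1e, a phosphatase that removes the activating phosphates of CaM kinases, fell by 0.89 (SE 0.13, limma adjusted p = 0.000322), from 99.4 to 53.7 FPKM. Of the 4 inhibitor and phosphatase genes, 2 were called higher and 1 lower, beside 10.7% and 9.97% of all genes, and their median log2 fold change was 0.47, beside -0.0018 for all genes.

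Among 10 calmodulin genes and calmodulin-binding proteins, 0 rose and 2 fell with age in AL mice, a share close to the 20.6% called over all genes, and the list median was -0.23. Calm3, one of the genes that encode calmodulin itself, had a log2 fold change of -0.34 (SE 0.11, limma adjusted p = 0.0276), and Calml4, a calmodulin-like gene, one of -3.11 (SE 0.61, limma adjusted p = 0.00172). Calml4 fell beside the choroid plexus list, whose summed level was 30.0 to 340.7 FPKM in AL mice at 5 months and 1.56 to 18.4 FPKM at 15 months. Its source was not tested. Calm2, which also encodes calmodulin, had a log2 fold change of -0.41 and was not called (SE 0.15, limma adjusted p = 0.0531).

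Calcineurin, the calcium-activated phosphatase that opposes many kinases at the synapse, had 2 of 9 genes called higher (10.7% over all genes) and 3 lower (9.97% over all genes), with a list median of 0.02. Ppp3ca, a catalytic subunit, fell by 0.90 (SE 0.21, limma adjusted p = 0.00553), and Ppp3r1, a regulatory subunit, by 0.49 (SE 0.13, limma adjusted p = 0.0124). Rcan3 and Cabin1, which restrain calcineurin, rose by 0.35 and 0.29. The 3 genes that fell encode subunits of the enzyme.

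Of 17 tested genes for CaMK substrates and binding partners, 1 rose and 2 fell, which is no more than the 20.6% called over all genes, and the list median was -0.06. Gria1, an AMPA receptor subunit that CaMKII phosphorylates, fell by 1.31 (SE 0.22, limma adjusted p = 0.000707), from 209 to 86.6 FPKM. Grin2b, the NMDA receptor subunit to which CaMKII docks, fell by 0.87 (SE 0.26, limma adjusted p = 0.0214). Mef2c, a transcription factor controlled through class II histone deacetylases, rose by 1.82 (SE 0.28, limma adjusted p = 0.000415), from 21.0 to 79.5 FPKM. The study named Camk2b, Camkk1, Camk1, Camk2d, Camk4, Gria1, Grin2b, Ppp3ca and Mef2c from these same libraries, so their directions are not independent evidence. By another method it reported each as changed with age and changed the opposite way by CR at 15 months. Here limma called none of them between the diets at 15 months, and did not call Camkk1, Camk1 and Camk4 with age in AL mice.

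The 14 other members of the CaMK superfamily on the list had a list median of -0.03, with 2 called higher (Cask, 0.29, and Eef2k, 0.24) and 1 lower (Dclk2, -0.43), a share close to the 20.6% over all genes. The 9 immediate early genes, which calcium signals induce, had 0 called with limma and a median of 0.57. The SEs of single genes ran from 0.20 (Bdnf) to 0.73 (Egr2). An unadjusted limma p under 0.05 was reached by 2 of the 9, beside 5972 of the 16978 genes tested. Region markers moved with age alongside all these lists, as given above, and their part was not tested. With age in CR mice, Ppm1e (-0.47, limma adjusted p = 0.0484), Calml4 (-3.78, limma adjusted p = 0.00109) and Mef2c (1.28, limma adjusted p = 0.0126) were the genes called over the 6 lists, 3 of 63 beside 3.36% of all genes. Between the diets 0 genes of the 6 lists were called at either age, and at 15 months 12 of the 63 had an unadjusted limma p under 0.05, against 17.1% of all genes.

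For each of the 4 genes called with age in AL mice, the 3 genes with the most similar pattern over the 22 libraries were listed, by Pearson's r of log2(FPKM + 0.1) among 13839 genes. These correlations describe libraries that share age groups and tissue makeup. Camk2b was most like Anxa11 (0.96), Orai2 and Faah (0.94 each), and Camk2d was most like Dusp26 (0.96), Hrh1 and Plekhb2 (0.94 each). Camk2g was most like A930017M01Rik (0.94), Gcnt4 and Epb4.1 (0.92 each), and Camkv was most like Chst1 (0.96), Icam5 and Ccnd1 (0.93 each). Within groups, after the group means were removed, r was 0.75 to 0.93 for these 12 pairs. They were picked for the highest r over the same libraries, so a high r within groups partly follows from that choice.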

How the data were processed

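Messenger RNA of hippocampal CA1 microdissections from 22 mice was analyzed. The authors aligned reads to mm10 with TopHat, removed duplicates with Picard and deposited FPKM from Cufflinks for 23361 genes, 1 column per mouse; the annotation release is not given in the sources used here. The test covered the 16978 genes whose FPKM averaged 0.1 or more, as log2(FPKM + 0.1), in 1 fit of the 4 groups with limma 3.58.1 in R 4.3.3 (eBayes with a trend, two-sided, Benjamini-Hochberg over all genes within each contrast, called under 0.05). All 4 groups entered the fit because they are small and share 1 estimate of the spread. For each of the 10 genes, the group means were compared a second time with a two-sided exact permutation test (462, 924 or 252 divisions of the libraries). Tables were made in Python 3.11.15 (pandas 2.3.3, numpy 2.4.6) and figures with matplotlib 3.10.9. The limma fit was run on simulated libraries for age in each diet and for diet at each age. Every group had the same spread in them, which was not so in these mice.

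The FPKM values do not give back whole reads, since at most 0.379% of low genes lay on a common ratio in 3 pairs of libraries. The 10 genes, the lists of related genes and the marker lists were chosen with earlier results of these data known. All 10 genes are described in every contrast. From each list of related genes, up to 2 called genes with the largest increase and 2 with the largest decrease are named, and the genes with the most similar pattern were sought at a mean FPKM of at least 1. A shared 50-base stretch was sought among GENCODE M21 transcripts. Of the 64 listed genes, 63 were tested. No statement of separate cages or litters was found, so p-values measure the spread between these mice. Alternatives were a pseudocount of 1 or 0.01, no filter, a mean FPKM of at least 1, quantile normalization, a common median, eBayes with no trend, a fit of the compared groups alone, a replicate block, the region score as a covariate, and each library left out in turn.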

Additional observations from a re-analysis of the deposited data

Results flagged for a closer look

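Each of the 10 genes was examined in each of the 4 groups for 1 library standing apart from the rest by Dixon's test, and 2 of 40 gene and group pairs were flagged. Chance flags about 1 in 20. Camk1g in AL mice at 15 months was lowest in replicate 4, at 10.8 FPKM, where the nearest library was at 19.6 and the highest at 23.4 FPKM. Camkk2 in CR mice at 5 months was lowest in replicate 3, at 29.1 FPKM, where the nearest was at 32.1 and the highest at 33.1 FPKM. Without AL 15 months replicate 4, the log2 fold change of Camk1g with age in AL mice was 0.31 in place of 0.15 and was not called (limma adjusted p = 0.196).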

How the results depend on the processing

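Of the 10 genes, the number called with age in AL mice was 4. It was 8 when the AL groups were fitted alone, 0 with the region score as a covariate, and 4 to 6 with 1 library left out. With age in CR mice it was 1, and 0 in the fit of the CR groups alone or with the region score, and 0 to 2 with 1 library left out. Between diets at 15 months it was 0, and 0 to 1 with 1 library left out. For old CR against young AL mice it was 1, and 0 in the fit of these groups alone or with the region score, and 0 to 1 with 1 library left out. Between diets at 5 months and for the interaction it was 0 in every alternative run. A pseudocount of 1 or 0.01, no filter, a higher filter, a common median, quantile normalization and eBayes without the trend kept every count within 1.5 times. The genes behind the count were not always the same. With age in AL mice, a common median added Camk2a, and quantile normalization added Camk1 (limma adjusted p = 0.0463) and Camkk2 and lost Camkv.

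With the region score as a covariate, the age differences in AL mice turned sign for Camk2a (0.065), Camk4 (-0.34), Camkk1 (0.13) and Camkv (0.017), and those in CR mice for Camk2a (0.30), Camk2b (0.27), Camk1g (0.086) and Camkv (0.079). Under quantile normalization Camk2a (0.037) and Camk1 (0.014) turned sign with age in CR mice. With 1 library left out, the CR age difference ranged from -0.21 to 0.027 for Camk2b, -0.11 to 0.17 for Camk1 and -0.027 to 0.29 for Camkk1. None of these was called, and the cause was not tested.

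The labels do not say what the replicate numbers mean, and they were not used to pair mice. Among 31 same-numbered pairs, deviations from the group means correlated at -0.139 to 0.163. Whether the numbers mark a shared batch cannot be told from this. With the replicate number as a block, the counts of the 10 genes called were 4, 1, 0, 0, 1 and 0 in the order of the contrasts above (age in AL, age in CR, diet at 5 and at 15 months, old CR against young AL, interaction). Over all genes, the block called 323 between diets at 15 months in place of 126, and the fit of those groups alone called 0. Of the 126, 56 were higher and 70 lower in CR mice, against 87 and 51 with libraries shifted to a common median and 52 and 25 under quantile normalization. The study gives an average depth but not the depth of each library, so no limit from counting is given for single values.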
